A study of Mus musculus with 6 samples.

Results

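The transcriptome of untreated A20 cells was read from a single array, 1 of the 6 arrays in the series. A20 is a single established B lymphoma line of BALB/c mouse origin. The array was chosen by its title, which names non-stimulated cells with DMSO, while its source label names only normal growth medium. The culture had received neither TGF-β nor SP600125, a JNK inhibitor that other arrays of the series carry with or without TGF-β. Per the labels, the medium was RPMI with fetal bovine serum, Hepes, β-mercaptoethanol, penicillin and streptomycin. Total RNA was labelled as biotinylated cRNA and hybridised to an Affymetrix whole-genome mouse array, type 430 2.0. There was 1 array of this condition, so no value below has a replicate error and no test was made.

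B lymphocytes recognise antigen with surface immunoglobulin, which signals through the Cd79a and Cd79b chains. They take up antigen and present its peptides on MHC class II molecules to helper T cells. In the germinal centre, activated B cells mutate their antibody genes under the repressor Bcl6, and some leave as antibody-secreting plasma cells under the factors Irf4, Prdm1 and Xbp1. B cell lymphomas usually keep features of the stage at which they arose.

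The array held 45101 probe sets, which are groups of short probes against 1 transcript. Of these, 34958 carried exactly 1 gene symbol and gave 18194 genes, each represented by its brightest probe set. Values are linear signals in arbitrary units, scaled per array. Gene signals ran between 0.5 and 44970.2 with a median of 118.8. The median signal of all probe sets on the array, 69.3, served as a floor, and 10800 genes were above it (59.4%), which left 7394 at or below it. The brightest 10.0% of genes, 1819 genes, had signals over 2776.7 and together held 68.0% of the summed gene signal, against 0.99% for the genes at or below the floor.

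Uncertainty of several kinds bears on a signal read once. Among the 9012 genes with more than 1 probe set, the brightest was a median of 2.31 times the next one (interquartile range 1.43 to 5.42). So 2 genes whose signals differ by less than about 2.31-fold have no order here, and a larger difference does not by itself set one. Words such as brightest, led or lower refer to the signals read. Probe sets bind with different strength, and the ranking is one of signals and not of transcript numbers. A low signal can also be a probe set that does not read its gene. Rps16, a protein of the small ribosomal subunit, had a single probe set at 2.6, while 44 of the 48 listed cytosolic ribosomal protein genes were above the floor. In 26.5% of genes with several probe sets and the brightest above the floor, the next one was at or below it.

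The B cell identity of the line was plain in its surface markers. Ptprc, the leukocyte phosphatase CD45, had a signal of 16925 on a probe set marked for possible cross-binding and 216 on the other. Ms4a1, which encodes the B cell surface protein CD20, read 14819 and 6985. Cd79b and Cd79a, the signalling chains of the antigen receptor, read 13468 and 3028. H2-Ab1, a β chain of MHC class II, read 9348, 8370.4 and 6907. By their brightest probe sets, all of these lay in the top 10% of genes. Cd22, an inhibitory receptor of B cells, read 1950 and stood at the 85.9th percentile. Pax5, the factor that fixes B cell identity, was the exception at 115, close to the middle of all genes (percentile 49.5), and its other probe set was below the floor at 18.

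Markers of other cell types were low. The 7 measured B cell markers were all above the floor, with signals of 115 to 16925 and a sum of 59652. Of the T cell markers 2 of 7 were above it and the sum was 533, with Cd3e at 39, Cd3g at 15 and Cd3d at 13. The brightest of them, Zap70, a kinase of the T cell receptor, read 302 on 1 probe set and 39 and 30 on the other two. NK cell markers summed to 160 (2 of 3 above the floor, 7 to 80) and granulocyte markers to 144 (1 of 4, 20 to 72).

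Of the macrophage markers 3 of 6 were above the floor and their sum was 1160.0. Such sums depend on the number of markers and on their probe sets, and are not ranked between cell types. Cd68, a lysosomal glycoprotein, read 495, Csf1r, the receptor for macrophage growth factor, 286 and Adgre1, the F4/80 antigen, 271. The other macrophage markers, Lyz2 at 62, Mrc1 at 33 and Cd14 at 13, were below the floor. Erythroid markers summed to 50 (0 of 2), platelet markers to 341 (2 of 2), fibroblast markers to 186 (1 of 4), endothelial markers to 195 (1 of 3) and epithelial markers to 353 (1 of 4). In RNA from a whole culture, few cells with a high level and many cells with a low level of a transcript cannot be told apart.

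**Figure D1:**
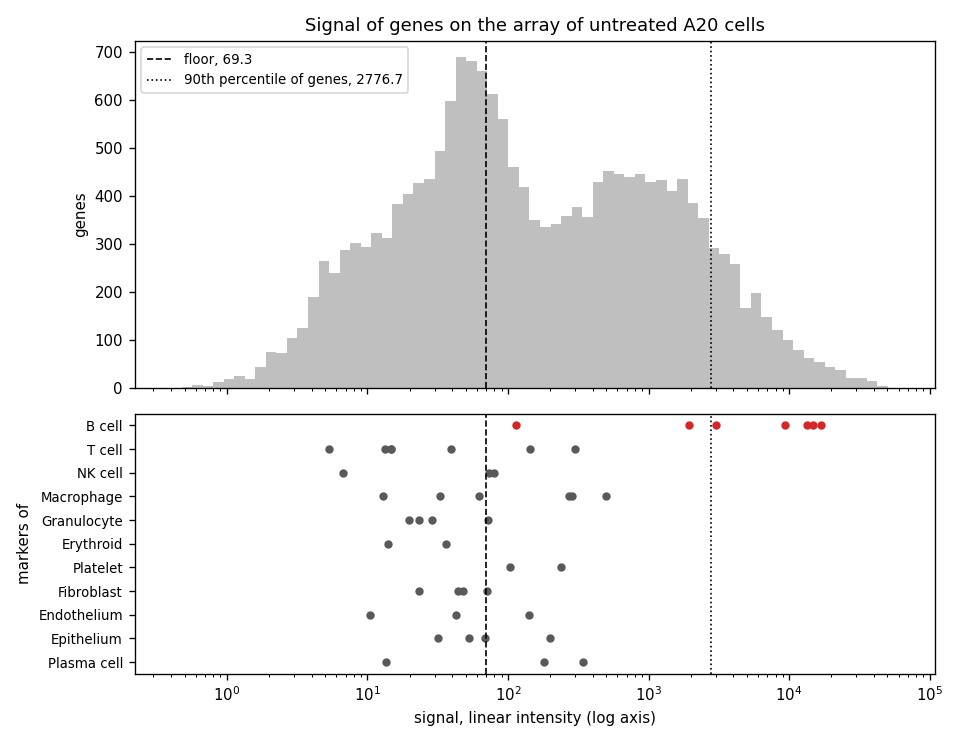
Upper panel, number of genes by signal on the array of untreated A20 cells, on a log axis of linear signal in arbitrary units. Lower panel, the signal of each measured marker gene by cell type, 1 point per gene. The dashed line is the floor at 69.3 and the dotted line the 90th percentile of genes at 2776.7. The B cell markers reach 16925, with Pax5 alone near the floor, and no marker of another type exceeds 495.

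Across all gene lists, 165 of 196 measured members of the B cell lists were above the floor (84.2%), beside 59.4% of all genes. In the top 10% of genes were 60 of them (30.6%), beside 10.0% of all genes, and their median signal was 1053.1, beside 118.8 over all genes. Lists of other lineages had 104 of 438 members above the floor (23.7%), 3 in the top 10% (0.7%) and a median of 33.5. The lists were chosen with earlier results of these data known, so the contrast describes the lists and is no test of identity. The 438 include sensory receptors, keratins and Hox genes. Sensory receptors and keratins, genes of sensory neurons and epithelia, had 10 of 76 (13.2%) and 10 of 81 (12.3%) above the floor. The highest share among these lists was 46.2%, for erythroid cell and platelet genes.

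**Figure D2:**
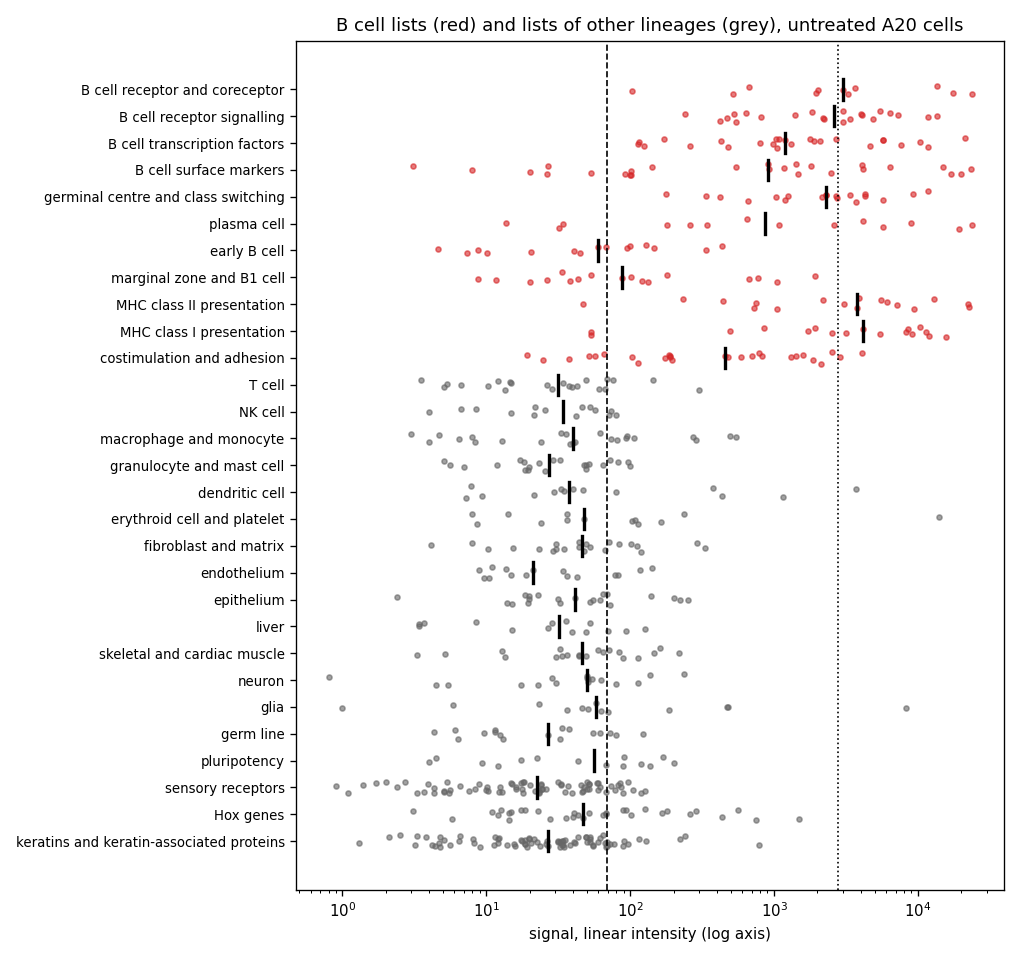
Signal of each measured member of the B cell lists (red) and of the lists of other lineages (grey) in untreated A20 cells, on a log axis of linear signal in arbitrary units. Each point is a gene, the black bar is the median of a list, the dashed line is the floor and the dotted line the 90th percentile of genes. Medians of the B cell lists lie above the floor except for the early B cell list at 59.7, and all medians of the other lists lie below it.

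All 11 measured genes of the antigen receptor and its coreceptors were above the floor and 6 were in the top 10%. Jchain, which joins secreted antibodies into polymers, was the brightest at 23616. Ighm, the μ heavy chain, had 11 probe sets of which 5 were above the floor. A pair of these read 17537 and 14464, the next read 220 and the lowest 4.8. Ighg3, a γ heavy chain, read 2005, 447, 6.4 and 1.2 on 4 probe sets, and Igha, the α heavy chain, read 103, 34 and 20. Heavy chain genes share sequence, and the platform's names cannot settle which chain these probe sets read. Among 15 genes named as antibody variable segments, 2 were in the top 10%, Igkv8-30 at 18249 and Iglv1 at 11198, while 11 were below the floor. This family was picked after its values were seen, and its members are similar in sequence.

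Coreceptors and inhibitory receptors stood lower than Cd79b. Cd81, a tetraspanin of the coreceptor complex, read 3672. Fcgr2b, the inhibitory receptor for IgG, read 3252, with 4 of its 5 probe sets between 1865 and 3252 and 1 at 3.9. Cr2, the complement receptor CD21, read 666 and Cd72, another inhibitory receptor, 520.0.

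The signalling chain below the receptor was present throughout, with all 22 measured genes above the floor and 11 in the top 10%. Prkcb, the protein kinase C that carries the signal to NF-κB, read 11695. Ptpn6, a phosphatase that dampens the receptor, read 7235, and Plcg2, the phospholipase downstream of Btk, 6383. The adaptor Blnk read 4088 and the adaptor Pik3ap1 3993. Among the tyrosine kinases of the chain, Fyn read 3366, Btk 1405, Syk 468 and Blk 241.

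Of the 60 top 10% genes of the B cell lists, 50 had a promoter in the RefSeq table. The octamer ATGCAAAT, the site read by Oct factors and their B cell partner Pou2af1, was in 3 of these 50 (6.0%). They were Prkcb, Blnk and the factor gene Mef2b. Of all protein-coding genes with a promoter, 197 of 13269 held it (1.5%). Genes without a promoter there, such as Ms4a1, Cd79b and Cd74, could not be searched. Dimmer genes of the B cell lists held the octamer too, Vpreb3 at 337 and Ccr6 at 101, so it was not limited to bright genes. Mef2b, Prkcb and Blnk are shown because Pou2af1 itself was among the brightest B cell genes. Each stretch is 60 bases from GRCm38.p6, 5′ to 3′ on the strand of the gene, with the octamer or its reverse complement in capitals. The Mef2b stretch is chr8:70152650-70152709 on the plus strand, that of Prkcb chr7:122289029-122289088 on the plus strand and that of Blnk chr19:40994318-40994377 on the minus strand.
Mef2b: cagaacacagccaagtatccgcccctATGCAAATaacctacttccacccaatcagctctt
Prkcb: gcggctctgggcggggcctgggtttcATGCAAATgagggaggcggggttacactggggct
Blnk: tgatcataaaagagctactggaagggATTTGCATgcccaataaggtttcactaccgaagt
The match is a description of the letters and does not show that a factor binds.

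Every one of 25 measured B cell transcription factors was above the floor, and 7 were in the top 10%. Pou2af1, the B cell coactivator of octamer promoters, read 21168. Mef2b, a germinal centre factor, read 11777 and Mef2c 10311 (5 probe sets, all between 4158 and 10311). The lymphoid zinc finger factors Ikzf1 and Ikzf3 read 7606 and 5743. Bcl6 read 5736 and 1171 on its 2 probe sets, and Spib, an ETS factor of B cells, 4678.

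A middle group held factors that set up the B lineage. Foxo1 read 2711, Ets1 2099, Tcf3 1787, Spi1 1315 and Irf8 1053. Ebf1, the early B cell factor, read 982, with its 5 probe sets spread between 21 and 982. The dim end was Klf2 at 112.5, Pax5 at 115, Zeb2 at 126, Pou2f2 at 171 and Irf4 at 262. Pou2f2 encodes the Oct factor of B cells and gave 171, 167 and 88 on 3 probe sets.

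Surface molecules of B cells were split, with 20 of 26 above the floor (76.9%), beside 59.4% of all genes, and 7 in the top 10%. Cd52, a small glycoprotein of lymphocytes, read 23514. Cd24a, the heat-stable antigen, read 19795, and the tetraspanins Cd37 and Cd53 6377 and 4128. Fcmr, the receptor for IgM, read 4061. Of the receptors for the survival factors BAFF and APRIL, Tnfrsf13b read 2493 and Tnfrsf13c 1460.

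Below the floor were 6 surface genes. Ccr7, the receptor that guides lymphocytes into T cell zones, read 3.1, and Cd27, a memory B cell marker, 7.9. Cd9 read 20, Cd5 26, Cd44, a receptor for hyaluronan, 27 on the brightest of 4 probe sets, and Cd1d1 54. Cxcr5, the receptor that guides B cells into follicles, was above it at 541, and Cxcr4, which guides cells to the germinal centre dark zone, stood out among chemokine receptors at 3645.

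Genes of the germinal centre and of class switching were all above the floor, 19 of 19, with 7 in the top 10% and a median of 2313.9. Besides Mef2b and Bcl6, Rgs13, a brake on chemokine receptor signals, read 4270.5 and Gcsam, a germinal centre adaptor, 3385 and 621. S1pr2, which keeps B cells inside the follicle, read 1187 and 367, and Mybl1 1031 and 211. The repair genes that act on deaminated DNA were present too, with Apex1 at 9265, Msh6 at 4275, Polh at 2314 and Ung at 1256. Several of these repair genes serve every dividing cell. Among 19 RGS genes, a family picked after its values were seen, Rgs13 was the only one in the top 10%.

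Plasma cell genes fell into separate groups. Jchain, Mzb1 at 19421, a chaperone for antibody assembly, and Xbp1 at 8901 were in the top 10%, along with Herpud1 at 5753 and Txndc5 at 4141, which act in protein folding and quality control. Xbp1 was thus in the top 10% while the other regulators and the surface markers named here were not. Irf4 read 262 and 67, Prdm1 181 and Sdc1, the plasma cell marker CD138, 341. Tnfrsf17, a survival receptor of plasma cells, read 14. In all 11 of 14 members were above the floor (78.6%), beside 59.4% of all genes, and 5 in the top 10%.

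**Figure D3:**
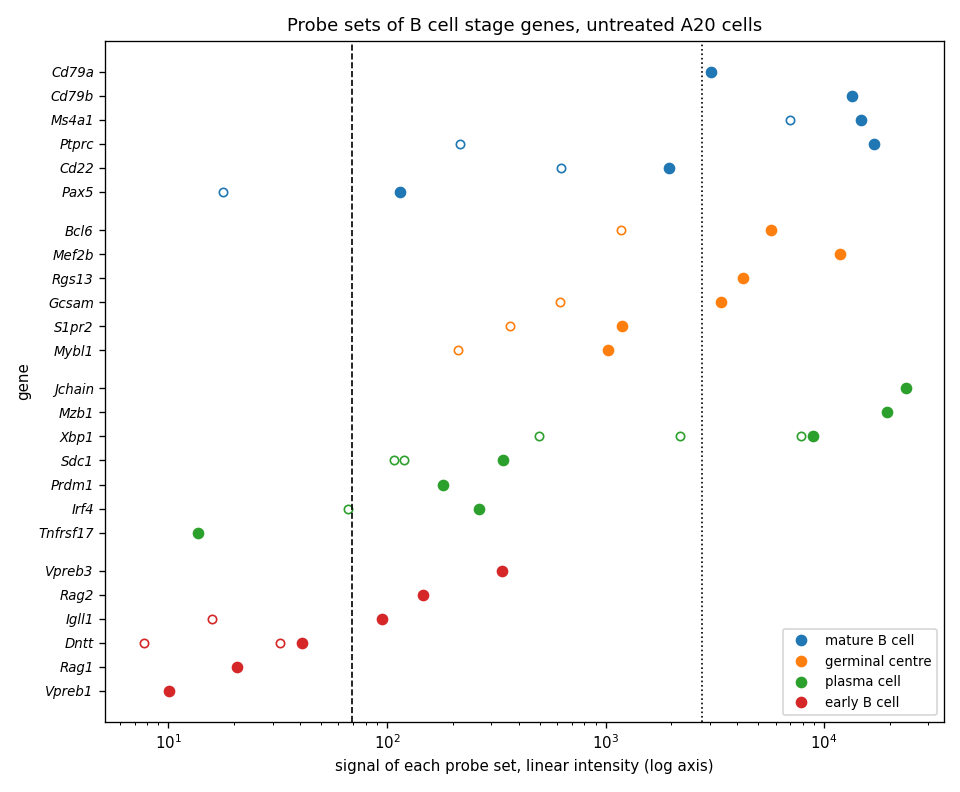
Signal of every probe set of 25 genes of B cell stages in untreated A20 cells, on a log axis of linear signal in arbitrary units. Filled points are the brightest probe set of a gene and open points its other probe sets. The dashed line is the floor and the dotted line the 90th percentile of genes. Jchain, Mzb1 and Xbp1 lie with the mature and germinal centre genes, while Prdm1, Irf4, Sdc1 and Tnfrsf17 lie at 341 or lower and Pax5 near the floor.

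Genes of early B cell development were mostly dim, with 6 of 15 above the floor, none in the top 10% and a median of 59.7. Rag1 and Dntt, which cut and fill antibody gene joins, read 20.5 and 41, Vpreb1 of the surrogate light chain 10, Cd34 4.6 and Il7r, the receptor of early B cell growth, 67. Rag2 read 146 and Igll1 95. Flt3 at 436 and Vpreb3 at 337 were the brightest members. Marginal zone and B1 cell genes had 9 of 17 above the floor (52.9%), near the 59.4% of all genes, and none in the top 10%. They were led by Zbtb32 at 1929 and Zbtb20 at 1048, with Cd9, Cd5 and Cd1d1 below the floor as given above.

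The lists of class II and class I presentation had the highest shares of top 10% genes among the B cell lists, 58.8% each. Of 17 class II genes 16 were above the floor and 10 in the top 10%. H2-Aa, the α chain of the I-A molecule, read 22757, 21375 and 19817 on 3 probe sets and 125 on the other one. Cd74, the invariant chain that guards the peptide groove, read 22263. H2-Ea read 12841, 6246 and 51 and H2-Eb1 6076. Ifi30 and Ctss, which process antigen in lysosomes, read 7207 and 5564, and the peptide editors H2-DMa and H2-DMb2 3870 and 3755. Ciita, the coactivator on which class II transcription depends, read 234, 118 and 20. Marchf1, a ubiquitin ligase that removes class II from the surface, was the member below the floor at 47.

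Class II promoters are known for a conserved upstream module that ends in a CCAAT element. The 150 bases before the start of H2-Aa (chr17:34287824-34287973, minus strand) and H2-Eb1 (chr17:34305717-34305866, plus strand) in RefSeq's GRCm38.p6 annotation are shown for it, with CCAAT and its reverse complement ATTGG in capitals. CCAAT or ATTGG occurred in 38.2% of all 13269 promoters, so a match is common.
H2-Aa: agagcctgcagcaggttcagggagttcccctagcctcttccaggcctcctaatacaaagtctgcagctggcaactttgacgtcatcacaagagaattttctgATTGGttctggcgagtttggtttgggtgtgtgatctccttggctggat
H2-Eb1: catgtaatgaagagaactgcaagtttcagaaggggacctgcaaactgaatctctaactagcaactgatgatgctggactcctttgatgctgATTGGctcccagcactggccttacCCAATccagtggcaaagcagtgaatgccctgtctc
Over these bases H2-Aa had 2 CpG dinucleotides and H2-Eb1 had 0.

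The class I list had 15 of 17 above the floor and 10 in the top 10%. B2m, the light chain, read 9032, H2-K1 8304 and H2-D1 5461. The chaperones Calr and Canx read 15788 and 12015 and the immunoproteasome subunit Psmb8 read 11358. The peptide transporter Tap1 read 493, 138, 42 and 17, and Nlrc5, the class I coactivator, was below the floor at 53. H2 genes share sequence, and their probe sets may read more than 1 of them.

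Costimulation and adhesion genes had 21 of 27 above the floor (77.8%), beside 59.4% of all genes, but 2 in the top 10% (7.4%). Slamf6 read 4069 and Cd48 2862, both of the SLAM group. Cd40, the receptor for T cell help, read 1422, 1264 and 731. Cd86 read 189 and Cd80, the other ligand of CD28, 66, just under the floor. Cd70 at 25 and Tnfrsf14 at 19 were the dimmest. Itgal and Itgb2, the pair that forms LFA-1, read 792 and 2529.

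T cell, myeloid and other lineage genes were dim with few exceptions. T cell genes had 3 of 22 above the floor (13.6%) and macrophage genes 9 of 23 (39.1%), beside 59.4% of all genes. The brightest macrophage gene was Mpeg1 at 540.5. In all, 4 members of the other-lineage lists exceeded the 80th percentile of genes. Tfrc, the transferrin receptor of any iron-importing cell, read 14087, with all 6 probe sets at 654 or more. Cnp, a myelin enzyme that is also transcribed elsewhere, read 8254, Cst3, a secreted protease inhibitor, 3693 and Hoxa9, a factor of blood progenitors, 1491. Of 33 Hox genes 12 were above the floor (36.4%), and Hoxa5 at 753, Hoxc4 at 559 and Hoxa10 at 432 followed Hoxa9.

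The families described next were picked after their values were seen, so their values are examples and show no general pattern. Ms4a1 was the only one of 17 MS4A genes in the top 10%, with the next, Ms4a10, at 101. Ikzf1 and Ikzf3 were in the top 10% while Ikzf2 read 20. Of the D cyclins, Ccnd3 read 4095, Ccnd1 267 and Ccnd2 77. T-box factors had 1 of 12 and PAX factors 1 of 8 above the floor, beside 59.4% of all genes. GATA factors had 3 of 6 above it (50.0%), near the share of all genes. Other families had more, with all 8 IRF factors, all 11 histone deacetylases and 30 of 34 ZBTB factors above the floor.

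The 40 brightest genes were nearly all of protein synthesis and cell structure. Members of the cytosolic ribosomal protein list made up 29 of them, and no member of a B cell list was among them. The list leaves out Rpsa, a ribosomal protein gene at 42349. Eef1a1, which brings aminoacyl-tRNA to the ribosome, led at 44970, followed by Rps29 at 42887, Rpl41 at 42620 and Rpl38 at 42532. Actb read 39979, Gapdh 34880 and the chaperone Hspa8 32574. The brightest gene was 1.49 times the 40th, which is less than the 2.31-fold spread between probe sets, so these 40 have no order. With only probe sets whose names carry none of the suffixes _a_at, _s_at and _x_at, 25 of the 48 listed cytosolic ribosomal protein genes remained. Their median percentile was 80.1, against 99.8 for all 48 by the brightest probe set, so these medians cover different sets of genes. B cell list genes numbered 5 among the 100 brightest, 10 among the 200 brightest and 25 among the 500 brightest.

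The housekeeping and growth lists cover protein synthesis, energy supply, protein handling, the cytoskeleton, redox genes, DNA replication and mitosis. Their 489 measured genes had 463 above the floor (94.7%) and 335 in the top 10% (68.5%). All 34 DNA replication genes were above the floor and 17 in the top 10%, led by Pcna, the sliding clamp, at 26862 and Mcm7 of the replicative helicase at 13231, with Tyms lowest at 300.3. All 36 mitosis genes were above it and 24 in the top 10%, with Pttg1 at 15116, Cdc20 at 14436, Mki67 at 11845 and Top2a at 10440.2. All 8 E2F factors were above the floor and none in the top 10%, with signals of 489 to 1712.

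Of 82 respiratory chain and ATP synthase genes 71 were in the top 10%, and of 39 proteasome genes 34. Glycolysis had 9 of 27 in the top 10%, with Gapdh, Pgk1 at 24359, Ldha at 23631 and Aldoa at 18418 in front. Isoforms of other tissues stood apart inside these lists. Cox6a2 of muscle read 141, Ldhc and Pgk2 of testis 86 and 8.7, the thymus proteasome subunit Psmb11 39 and the testis subunit Psma8 29. The heat shock genes Hspa1a and Hspa1b, which stress induces, read 13.5 and 43, beside 32574 for the constitutive Hspa8.

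All 20 cholesterol synthesis genes were above the floor, led by Hmgcs1 at 13280 and Idi1 at 7558. All 23 ER chaperone and unfolded protein response genes were above it, 16 in the top 10%, led by Hspa5, the main ER chaperone, at 24805 and Manf at 16440.0. CCAAT or ATTGG was found in 16 of 17 matched cholesterol promoters (94.1%), 16 of 19 matched ER chaperone promoters (84.2%) and 25 of 31 matched mitosis promoters (80.6%), beside 38.2% of all protein-coding promoters and 41.0% of those of top 10% genes. These lists are named because their shares were the highest among the gene lists. Another bright list, the cytosolic ribosomal proteins, was below the share of all promoters at 26.2%.

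**Figure D4:**
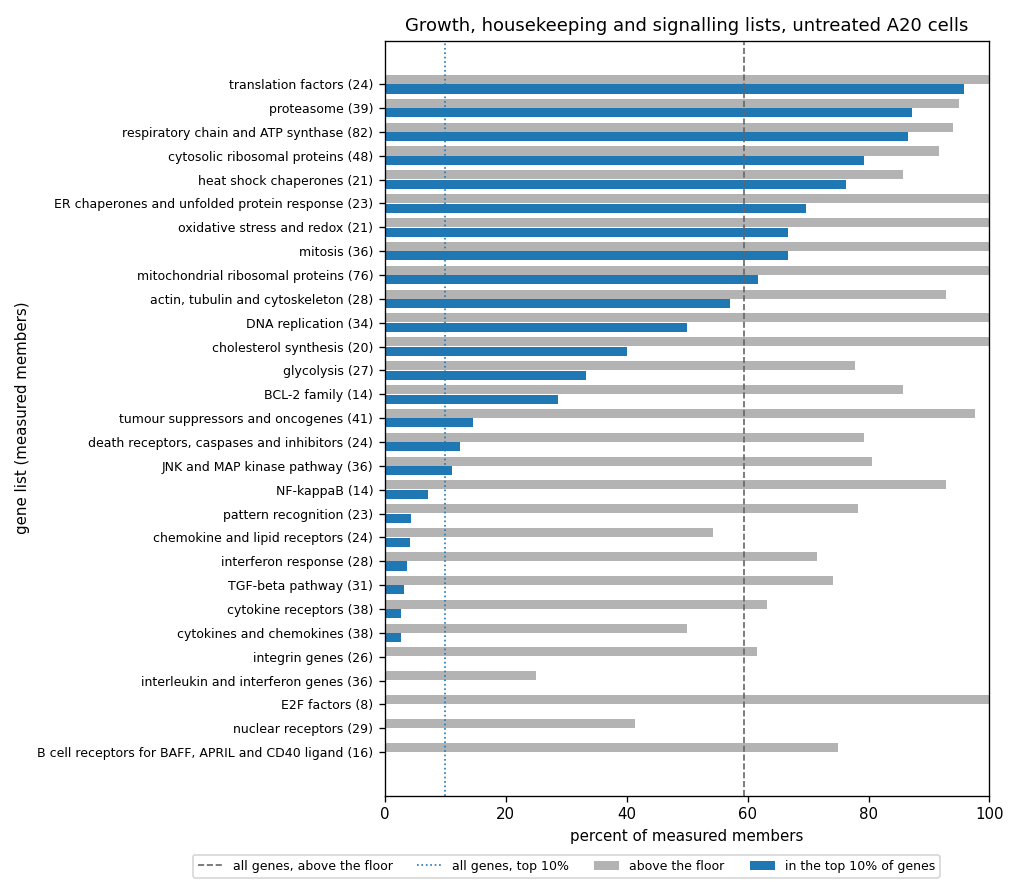
Percent of the measured members of each growth, housekeeping and signalling list that were above the floor (grey bars) and in the top 10% of genes (blue bars) in untreated A20 cells. The dashed line is the share of all genes above the floor, 59.4%, and the dotted line the top 10% share of all genes. Translation factors, with 23 of 24 in the top 10%, lie at one end, and E2F factors, nuclear receptors, integrins, interleukin and interferon genes and receptors for BAFF, APRIL and CD40 ligand have no gene there.

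The ribosomal proteins of mitochondria were above the floor in 76 of 76 cases, with signals of 977 to 11879. The motif CCGGAAGT, bound by ETS factors, was present on either strand in 11 of their 67 matched promoters (16.4%) and in 9 of 42 of the cytosolic ribosomal proteins (21.4%), beside 6.4% of all promoters, 9.2% of those of genes above the floor and 12.1% of those of top 10% genes. Other lists varied, with 21.4% for DNA replication, 7.5% for the respiratory chain and ATP synthase and 0.0% for cholesterol synthesis. Mrpl51 at 7916.0, Mrpl18 at 7465 and Mrpl52 at 6439 are shown as bright members that hold it, in capitals, 5′ to 3′ on the strand of the gene in RefSeq's GRCm38.p6. Mrpl51 lies at chr6:125192084-125192143 (plus strand), Mrpl18 at chr17:12916282-12916341 (minus strand) and Mrpl52 at chr14:54426884-54426933 (plus strand).
Mrpl51: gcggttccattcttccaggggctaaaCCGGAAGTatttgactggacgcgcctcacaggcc
Mrpl18: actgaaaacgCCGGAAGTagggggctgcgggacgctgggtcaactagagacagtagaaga
Mrpl52: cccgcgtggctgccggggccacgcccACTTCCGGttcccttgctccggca
Mrpl52 holds the reverse complement ACTTCCGG.

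Bright genes of the B cell lists and of the housekeeping and growth lists differed in the base make-up of their promoters, taken as 250 bases before to 50 after the start. The CpG ratio is the number of CpG dinucleotides over that expected from the C and G content. Its median was 0.44 in the 50 matched top 10% genes of the B cell lists, 0.84 in 277 matched top 10% genes of the housekeeping and growth lists that are in no B cell list, and 0.69 in all 13269 matched protein-coding genes. A ratio under 0.5 was found in 27 of the 50 (54.0%), in 14 of the 277 (5.1%) and in 33.4% of all. Jchain had 0.22, H2-Aa 0.16 and Mef2c 0.11, all low, while Canx, listed for class I presentation, had 1.18. TATAAA on either strand was present in 12 of the 50 (24.0%), beside 9.7% of all. Dim lists of other lineages varied: keratins had it in 68.2%, sensory receptors in 29.7%, NK cell genes in 15.4% and germ line genes in 6.7%. Their median CpG ratios were 0.24, 0.14, 0.2 and 0.44. A low CpG ratio and TATAAA were thus not limited to bright B cell genes. The B cell lists as a whole and the other-lineage lists as a whole are not given, because under 80% of their genes had a promoter in the table.

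**Figure D5:**
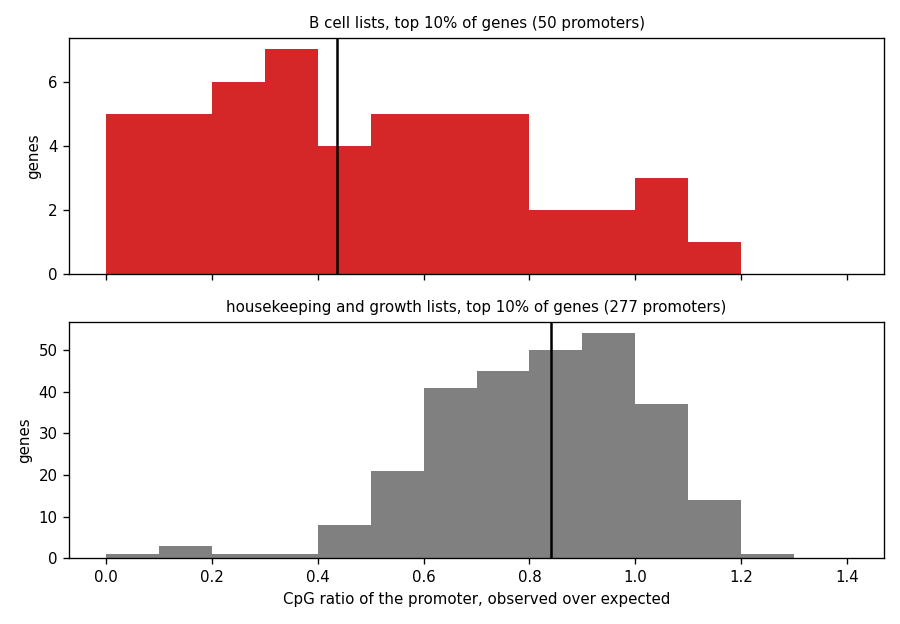
Number of genes by the CpG ratio of the promoter, observed over expected, for top 10% genes of the B cell lists (upper panel, 50 promoters) and of the growth and housekeeping lists (lower panel, 277 promoters) in untreated A20 cells. The vertical line is the median, 0.44 in the upper and 0.84 in the lower panel. The panels have separate vertical scales.

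Of 38 cytokine receptor, JAK and STAT genes 24 were above the floor (63.2%), close to the 59.4% of all genes, and 1 was in the top 10% (2.6%), beside 10.0% of all genes. The list was led by Jak1 at 3316, Stat3 at 2730.1 and Stat6 at 1704. Il21r, for a helper T cell cytokine that drives B cells, read 667, and Il4ra 273. Il2ra and Il2rb read 45 and 46, Il10ra 10 and Il5ra 4.4, all below the floor. Of 38 cytokine and chemokine genes 19 were above the floor (50.0%), beside 59.4% of all genes. Ltb, a chain of lymphotoxin, was the only one in the top 10% at 6531, Il16 read 1937, Tgfb1 1437.5 and Lta 534, while Il6 read 18, Ifng 6.9 and Il2 2.2.

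Receptors for microbial products had 18 of 23 above the floor (78.3%), beside 59.4% of all genes. Ly86, the partner of Cd180, read 6366 and Cd180 itself 759. Tlr1 read 2129, Tlr4 427 and Tlr9 161, while Tlr7 at 47 and Tlr3 at 8.7 were below the floor. Interferon response genes had 20 of 28 above it (71.4%) but a median of 128.4, close to the 118.8 of all genes. Trim25 at 2934 led, and Ifit3 at 4.7, Oasl2 at 4.2 and Mx2 at 7.6 were at the other end.

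The components that TGF-β and JNK signals would use were measured before either was perturbed. Tgfbr2, which binds TGF-β, read 996 on its brightest probe set and 58 and 25 on the others, and Tgfbr1, its signalling partner, 1032, 130.0 and 129. Smad4, the shared Smad, read 2313 and Smad2 1603, while Smad3 read 294 and the inhibitory Smad7 124. Smad6, the other inhibitory Smad, was below the floor at 2.4. In all, 23 of 31 pathway genes were above the floor (74.2%), beside 59.4% of all genes. In the top 10% was 1 of them (3.2%), Skil at 2987, beside 10.0% of all genes. Of the JNK genes, Mapk9 read 1042 and Mapk8 938, while Mapk10, the neuronal form, read 36. Jund at 3568 was the brightest AP-1 gene, with Junb at 882, Fos at 259 and Jun at 96.

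Apoptosis regulators were uneven. Bcl2l11, which encodes the death activator Bim, read 13428 and at least 896 on all 5 of its probe sets. The survival genes Mcl1 and Bcl2l1 read 6278 and 4556, whereas Bcl2 read 107 on the brightest of 5 probe sets and between 11 and 56 on the rest. Bid read 3744, and Bcl2l2 at 24.5 and Bik at 14 were below the floor. Birc5 at 6707, which also acts in mitosis, and Birc3 at 6307 led the inhibitors, Fas read 657.5 and its ligand Fasl 39.

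Among oncogenes and tumour suppressors 40 of 41 were above the floor and 6 were in the top 10%. These 6 were Bcl6, Ezh2 at 5164.5, Myc at 4365, Ccnd3, Cdkn2c at 4072 and Crebbp at 3318. Myb read 2741 and Pim1 2071, and Mycn was the one below the floor at 39.5. Nfkbia, the inhibitor that holds NF-κB in the cytoplasm, read 8512, with Rela at 1337 and Rel at 681. Steroid and orphan nuclear receptors had 12 of 29 above the floor (41.4%), beside 59.4% of all genes, led by Nr3c1, the glucocorticoid receptor, at 2193.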

How the data were processed

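RNA of untreated A20 cells was measured on 1 Affymetrix Mouse Genome 430 2.0 array, 1 of 6 arrays with 1 per condition. The deposited values are linear signal intensity per probe set, which per the submitters' processing notes came from GCOS 1.2. Their 2% trimmed mean was 500.0, as after global scaling. They were used as deposited. Detection calls were not used here.

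Names came from the platform annotation: 932 probe sets with several symbols and 9211 not listed were left out. A gene was its brightest probe set on this array, and the floor was the 50th percentile of all probe sets, 69.3. Counts and medians are descriptive and no test was run. The members and lists were chosen with earlier results of these data known. Named genes were the 40 brightest, members of lists of up to 40 measured genes (in longer lists the 4 brightest and 4 dimmest), other-lineage genes over the 80th percentile and the markers. Cdkn2c, Cox6a2, Crebbp, Mrpl18, Mrpl51, Mrpl52, Myb, Pim1 and the families named so were added after their values were seen. The 3′ over 5′ ratio of the control probe sets was 1.25 for actin and 0.79 for Gapdh. Promoters of 13269 of 16469 protein-coding genes (80.6%) came from RefSeq (GRCm38.p6). Motifs were searched on both strands. Alternatives were other floors and other rules for choosing a probe set. Scripts ran in Python 3.11.15 with pandas 2.3.3 and were tested on simulated data. The number of arrays limits the precision.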

Additional observations from a re-analysis of the deposited data

How the results depend on the processing

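The count of genes above the floor, 10800, ranged between 9110 and 14925 over 7 alternatives. Members of other-lineage lists above the floor numbered 287 with the floor at the 25th percentile of probe sets (19.2), 49 at the 60th percentile (118.1) and 69 at the 95th percentile of sensory receptor genes (91.2), against 104 of 438 with the floor used, because the construction of a floor sets how many dim genes pass. Of the 196 members of B cell lists, between 154 and 186 were above the floor where all were measured. Without probe sets of the suffixes _a_at, _s_at and _x_at the count was 142 of 176. Single genes moved with the choice of probe set. Ighm stood at percentile 99.2 and at 44.4 by the median of its probe sets. Ptprc stood at 99.2 and at 61.1 without probe sets of those suffixes. The median percentile of cytosolic ribosomal proteins was 99.8 over 48 genes and 80.1 over the 25 left without those suffixes. Pax5 stayed between 39.7 and 53.2. No paired analysis was possible because there was 1 array and no comparison between conditions.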

Other observations

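Genes of non-coding RNAs were dimmer as a class: 366 of 1355 annotated as lncRNA were above the floor (27.0%) and 10 were in the top 10%, beside 62.6% and 10.9% of protein-coding genes. Small nucleolar RNA host genes, a family picked after its values were seen, had 13 of 15 above the floor, led by Gas5 at 7217 and Snhg1 at 6265. Splicing factors of the SR and hnRNP families, picked likewise, had 23 of 29 in the top 10%, with Hnrnpab at 25537 and Srsf1 at 21809. Of 9 DNA methylation genes, picked likewise, 6 were above the floor (66.7%, near the 59.4% of all genes) and 2 in the top 10%. Uhrf1 read 4314, Dnmt1 3949, Dnmt3b 415, Dnmt3a 356, Tet2 318.5 and Tet1 31.

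By chromosome, the share of genes above the floor was highest on 17 (65.7%) and 11 (64.4%) and lowest, among chromosomes with over 100 genes, on 6 (54.8%) and X (52.0%). Xist, the RNA that silences an X chromosome, read 80, 30 and 2.6 on 3 probe sets. The Y genes Eif2s3y at 11, Uty at 32 and Kdm5d at 46.5 were below the floor, beside Ddx3x at 13760 and Eif2s3x at 9552 from X.

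Probe sets without a listed gene also carried signal. Of 9160 that were not array controls, 2570 were above the floor (28.1%), 155 exceeded the 90th percentile of genes and 29 exceeded 20000, the brightest at 43790.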
